A study of Arabidopsis thaliana with 6 samples.

Results

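The chloroplast-encoded transcripts of Arabidopsis thaliana were taken as every row of the deposited count table whose identifier starts with ATCG, the code for a locus of the chloroplast genome. The rule found 133 rows among the 32678 rows of the table. The RNA came from wild-type plants that had spent 7 days on MS plates (MS is a mineral growth medium) and were then given no melatonin, 100 µM melatonin or 1000 µM melatonin for 12 h. Melatonin is an indole that plants make from tryptophan. Each group had 2 RNA-seq libraries, and the labels give the tissue as leaf, although the title of the series speaks of root growth. Whether both libraries of a group stem from different plants is not stated. The p-values therefore reflect the spread between these libraries alone, and that spread may be technical. The gene-wise test also draws the spread of each gene toward that of all tested genes.

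The chloroplast genome carries genes for photosystem and cytochrome subunits, for the large subunit of Rubisco, for the ATP synthase and an NADH dehydrogenase-like complex, and for ribosomal proteins, an RNA polymerase, ribosomal RNAs and transfer RNAs. A bacterial-type polymerase, whose core subunits the chloroplast encodes and whose sigma factors the nucleus encodes, transcribes most photosynthesis genes. Phage-type polymerases encoded in the nucleus transcribe others. Many chloroplast genes lie next to each other and are copied into shared, polycistronic RNAs, which nuclear-encoded proteins cut, trim and stabilise. ATCG identifiers number the loci in their order along the genome.

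Neither the count table nor the RefSeq gene table used here pairs most of these identifiers with a gene name. RefSeq notes on nuclear genes name a few of the 133. Those described here are ATCG00430 (named photosystem II reaction center protein G in a note on a mitochondrial complex I gene), ATCG00530 (CemA-like proton extrusion protein), ATCG00660 (ribosomal protein L20), ATCG00670 (the plastid-encoded CLP P, a protease subunit) and ATCG01310 (ribosomal protein L2). It is not certain that this name is the current one for ATCG00430, which is therefore called by its identifier and read as no particular complex. The other rows are described by identifier, by their order and by counts. Gene lengths were not used, so levels are compared between libraries and never between genes.

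The libraries held 6410046 to 7723602 counts, of which 1.01% to 1.43% fell on chloroplast rows. The labelled tissue was checked against its markers. All 6 nuclear leaf markers, among them the Rubisco small subunit gene RBCS1A, had more than 3 counts in every library. So did 9 or 10 of the 10 root markers, with a summed level of 3291 and 3420 CPM in control libraries, 3151 and 3215 CPM at 100 µM and 2079 and 2123 CPM at 1000 µM, most of it from PYK10, a beta-glucosidase gene highly expressed in roots and seedlings. CPM are read counts scaled to the TMM-adjusted size of each library. Of 3 shoot apex markers, CLV3 had 0 counts in every library, WUS had 0 counts in 5 libraries and STM was present in all.

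Counts were concentrated on few chloroplast rows. The 5 rows with the most counts held 47.7% of all chloroplast counts. At the other end, 28 rows had 0 counts in all 6 libraries. Another 17 had counts but stayed below the filter on low counts, with at most 42 counts each over all libraries. These 45 rows together held 219 of the 517385 chloroplast counts, and 88 rows were tested. Because a row can pass the filter through the group in which it is higher, the 88 tested rows are not the whole set, and counts over them are descriptions.

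The rows without a test were not spread evenly. A stretch of 19 consecutive rows, ATCG00830 to ATCG01000, contained 12 of the rows at 0. The last 13 rows, ATCG01190 to ATCG01310, contained 11 more, and the 4 rows ATCG01140 to ATCG01170 were all at 0. Ribosomal protein L2 (ATCG01310) was among them, with 0 counts in every library. Plant chloroplast genomes carry a large inverted repeat whose genes exist in a pair of identical copies, and RefSeq lists 5 protein-coding symbols, ndhB, rpl2, rpl23, rps7 and ycf2, at 2 places with one length. Genes that share reads with an identical copy are uncertain in counts of this kind, so nothing is reported on the level of these rows.

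Between the 2 libraries of a group, chloroplast rows had a larger chi-square statistic than all genes had, in control as in the melatonin groups. Each set was measured against its own library totals, so a shift shared by all chloroplast rows does not enter the chloroplast values. The statistic also grows with the counts per row, so the 2 sets are not on one scale. The chi-square statistic per degree of freedom for 2 libraries of a group was 3.54 in control, 27.0 at 100 µM and 29.5 at 1000 µM over chloroplast rows. Over all genes it was 1.94 in control, 1.84 at 100 µM and 5.60 at 1000 µM. Without ATCG00020, the row with the largest called rise, the chloroplast values were 2.81 in control, 11.7 at 100 µM and 29.0 at 1000 µM. At 1000 µM, replicate 1 was higher than replicate 2 in 78 of the 88 tested rows, with a median log2 difference of 0.62. Replicate 2 was the higher one in 74 rows in control and in 64 rows at 100 µM. There the median log2 differences, replicate 1 against replicate 2, were -0.20 and -0.15. Many chloroplast rows thus moved together from library to library, so counts of rows are not counts of independent results. Results at this dose that rest on replicate 1 are therefore given with and without it.

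As a share of the library, chloroplast counts were 1.01% and 1.15% in control libraries, 1.30% and 1.43% at 100 µM, and 1.36% and 1.06% at 1000 µM. Both 100 µM libraries lay above both control libraries, with means of 1.37% ± 0.0875 at 100 µM and 1.08% ± 0.102 in control (SD, n = 2 each). The exact two-sided permutation test gave p = 0.333, the smallest value that 2 libraries against 2 allow. The 1000 µM group averaged 1.21% ± 0.212 and overlapped the control group (exact permutation p = 0.667). In RNA from whole organs, a change in the number of chloroplast-bearing cells and a change in chloroplast RNA per cell cannot be told apart. How RNA was selected for the libraries is not stated, and its part in these shares was not tested. Mitochondrial rows moved as well, holding 0.0454% and 0.0489% of counts in control libraries, 0.0681% and 0.0833% at 100 µM, and 0.105% and 0.0704% at 1000 µM. Their part in the chloroplast results was not tested.

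**Figure D1:**
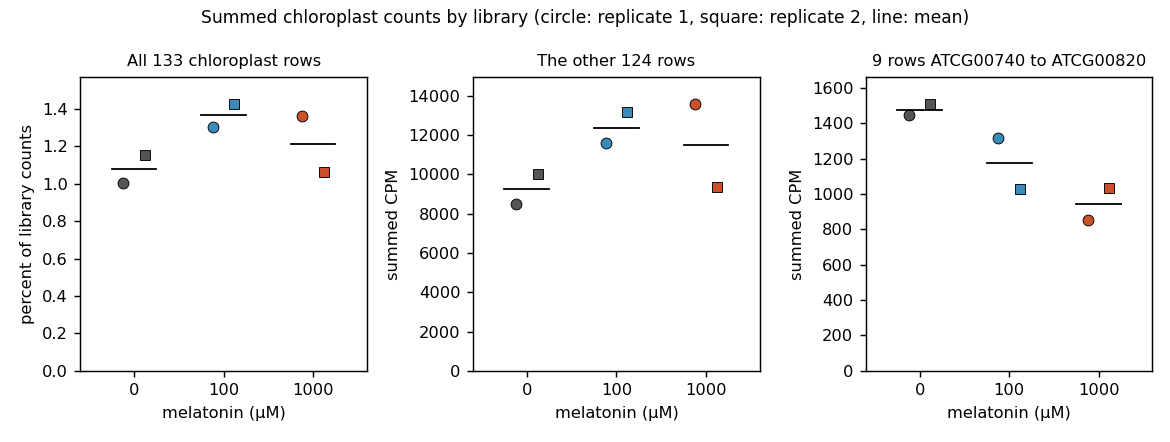
Summed chloroplast counts in each library against melatonin dose in µM: the share of library counts in percent over all 133 rows (left), and summed CPM of the 124 rows outside ATCG00740 to ATCG00820 (middle) and of the 9 rows inside it (right). Circles are replicate 1, squares replicate 2 and lines the mean of 2 libraries; the 9 rows summed to 850 and 1034 CPM at 1000 µM, below both control libraries at 1445 and 1510 CPM.

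At 100 µM melatonin, 27 of the 88 tested chloroplast rows rose against control and 0 fell (edgeR quasi-likelihood test, Benjamini-Hochberg adjusted over all 18380 tested genes, threshold 0.05). Among all tested genes, 1.79% were called higher and 1.53% lower. The 27 rises ran from 0.61 to 1.91 on the log2 scale, with a median of 0.82. Over the 88 rows the median log2 change was 0.63, against -0.01 over all genes. In 68 of the 88 rows both 100 µM libraries lay above both control libraries, which was so for 25.4% of all tested genes. At an unadjusted p under 0.05, 54 rows were higher and 10 lower, against 7.68% and 7.59% of all tested genes, and DESeq2 called 11 rows higher and 0 lower.

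The count at 100 µM depended on single libraries far more than the size of the change did. It was 1 without control replicate 1, 13 without control replicate 2, 3 without 100 µM replicate 1 and 1 without 100 µM replicate 2. A 1000 µM library is in neither group compared, but enters through the shared estimate of spread, the filter on low counts, the scaling and the adjustment. Leaving out either 1000 µM library made the count larger. The median log2 change was 0.63 without 1000 µM replicate 1 and 0.63 without 1000 µM replicate 2. The median log2 change stayed between 0.51 and 0.76 in these fits. One row, ATCG00020, was called in each of them.

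ATCG00020 had the second most counts of all chloroplast rows and the largest rise that passed the test. It stood at 1518 and 2544 CPM at 100 µM, against 450.4 and 628 CPM in control libraries, and the groups did not overlap. The log2 change was 1.91 ± 0.21 (SE) with an edgeR adjusted p of 4.11e-05, and it lay between 1.49 and 2.24 when single libraries were left out. Its share of all chloroplast counts was 11.8% and 17.9% at 100 µM, against 4.53% and 5.44% in control libraries. ATCG00100 was next among the called rises, at 33.7 and 38.5 CPM at 100 µM against 14.3 and 19.5 CPM in control libraries. Its log2 change was 1.09 ± 0.23 with an edgeR adjusted p of 0.0119, a call that was lost without control replicate 1 (0.147), without 100 µM replicate 1 (0.0944), without replicate 2 (0.211) and by DESeq2 (0.224).

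Of these named rows, those for ribosomal protein L20 and the CemA-like protein rose at 100 µM. Ribosomal protein L20 (ATCG00660), a part of the large subunit of the chloroplast ribosome, had 27.9 and 31.7 CPM at 100 µM, against 15.3 and 15.3 CPM in control libraries. Its log2 change was 0.96 ± 0.18 (edgeR adjusted p = 0.00676). The CemA-like row (ATCG00530), which belongs to a protein of the inner envelope membrane, had 94.4 and 97.1 CPM at 100 µM, against 56.9 and 65.9 CPM in control libraries, a log2 change of 0.64 ± 0.16 (edgeR adjusted p = 0.0327). DESeq2 did not call the CemA-like row (adjusted p = 0.410). Neither call survived the loss of any one of the 4 libraries compared: the adjusted p then lay between 0.0521 and 0.150 for L20 and between 0.0867 and 0.307 for the CemA-like row.

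CLP P and ATCG00430 did not pass the test at 100 µM. CLP P (ATCG00670), the proteolytic subunit of a chloroplast protease, had 68.5 and 71.8 CPM at 100 µM, against 45.1 and 51.5 CPM in control libraries, with an edgeR adjusted p of 0.0602 although the groups did not overlap. It was called with the 4 compared libraries alone (0.000257), with no filter on low counts (0.000385) and without either 1000 µM library (0.000155 and 0.000148). ATCG00430 had 136 and 156 CPM at 100 µM, against 136 and 155 CPM in control libraries, and the libraries overlapped.

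At 1000 µM melatonin, 44 of the 88 tested chloroplast rows rose against control, 10 fell and 34 did not pass the test. Among all tested genes 15.2% were called higher and 14.5% lower. The rises ran from 0.35 to 1.40 on the log2 scale with a median of 0.75. The median over the 88 rows was 0.60, against -0.01 over all genes. Both 1000 µM libraries lay above both control libraries in 51 rows, against 31.5% of all tested genes. DESeq2 called 20 chloroplast rows higher and 9 lower. Among mitochondrial rows, 22 of 49 tested rose at 1000 µM and 0 fell, with a median log2 change of 0.81. Their median row stood at 1.94-fold the control mean in 1000 µM replicate 1 and at 1.29-fold in replicate 2. The rise and the difference between the 1000 µM replicates were thus not particular to chloroplast rows.

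The rises at 1000 µM leaned on replicate 1. Relative to the control mean, the median chloroplast row stood at 1.43-fold and 1.58-fold in the 100 µM libraries, and at 1.85-fold in 1000 µM replicate 1 and 1.16-fold in replicate 2. Without 1000 µM replicate 1 the number of rises was 22 and the median log2 change 0.22. Without replicate 2 they were 67 and 0.94, and without control replicate 1 the number of rises was 20. Of the 22 rises without replicate 1, 21 were among the 44.

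**Figure D2:**
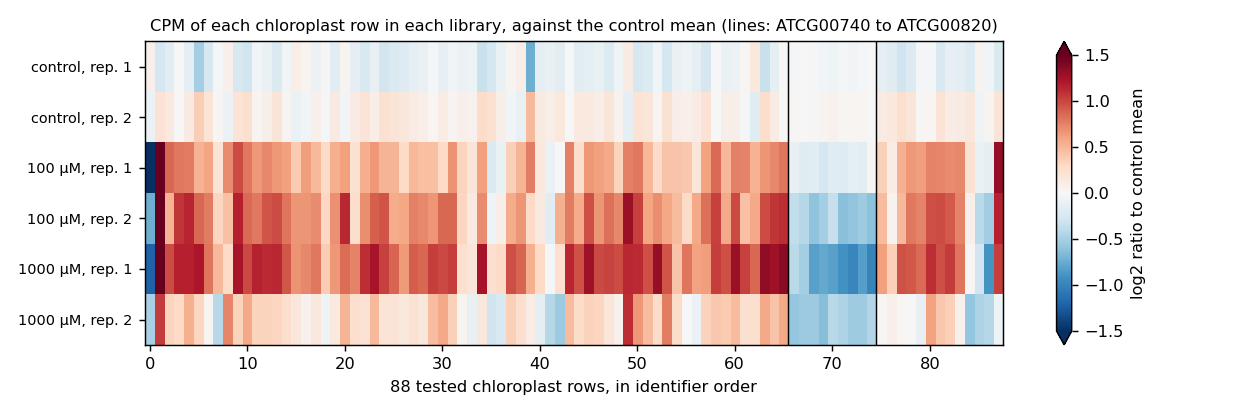
Log2 ratio of CPM to the control mean (pseudocount 0.5 CPM) for the 88 tested chloroplast rows, in identifier order along the horizontal axis, with one line for each library (control at the top, 1000 µM at the bottom). Red is above and blue below the control mean; 1000 µM replicate 1 is the reddest line (median 1.85-fold) and replicate 2 is paler (median 1.16-fold), while the 9 rows between the black lines are blue in both.

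ATCG00020 was again the largest called rise. It had 1730 and 1117 CPM at 1000 µM, against 450.4 and 628 CPM in control libraries, a log2 change of 1.40 ± 0.21 (edgeR adjusted p = 7.45e-05). The call held without each library in turn, with log2 changes of 1.06 to 1.69. The next largest, ATCG00560, rested on few reads: 4.02 and 3.92 CPM at 1000 µM, against 1.75 and 1.37 CPM in control libraries, with a log2 change of 1.34 ± 0.38 (edgeR adjusted p = 0.0125). Without control replicate 2 its adjusted p was 0.104, and by DESeq2 0.0852.

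The named rows that rose at 1000 µM were those for CLP P, ribosomal protein L20 and the CemA-like protein. CLP P (ATCG00670) had 95.0 and 63.6 CPM, against 45.1 and 51.5 CPM in control libraries (log2 change 0.71 ± 0.15, edgeR adjusted p = 0.00136), and it kept its call without each library in turn. Ribosomal protein L20 (ATCG00660) had 31.8 and 20.5 CPM, against 15.3 and 15.3 CPM in control libraries (log2 change 0.77 ± 0.18, edgeR adjusted p = 0.00403). Leaving out 1000 µM replicate 1 reduced its change to 0.43, which did not pass the test (adjusted p = 0.0599). The CemA-like row (ATCG00530) had 123 and 76.6 CPM, against 56.9 and 65.9 CPM in control libraries (log2 change 0.69 ± 0.16, edgeR adjusted p = 0.00279). Without 1000 µM replicate 1 its log2 change was 0.32, and DESeq2 did not call it (adjusted p = 0.0799). ATCG00430 had 177 and 124 CPM, against 136 and 155 CPM in control libraries, and the groups overlapped (edgeR adjusted p = 0.816). Without 1000 µM replicate 2 its log2 change was 0.29 and was called (adjusted p = 0.00995).

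All of the falls but one lay side by side. The 9 consecutive rows ATCG00740 to ATCG00820 all fell at 1000 µM, with log2 changes of -0.49 to -0.74 and a median of -0.68. Both 1000 µM libraries lay below both control libraries in each of the 9, which was so for 33.1% of all tested genes. No row in this run rose, and outside it 1 of 79 tested rows fell. The stretch was noticed in these data and was not chosen beforehand, so it is given without a test of its own. The 10 falling rows kept their calls without each library in turn. DESeq2 called the 9 rows of the run and gave the tenth an adjusted p of 0.0548.

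The largest fall of the run was that of ATCG00800, which had 147 and 199 CPM at 1000 µM, against 282 and 296 CPM in control libraries (log2 change -0.74 ± 0.14, edgeR adjusted p = 0.000609). Each 1000 µM library was below each control library. ATCG01130, which fell outside the run and is named because it was the one such row, had 324 and 449 CPM at 1000 µM, against 586 and 620 CPM in control libraries (log2 change -0.64 ± 0.14, edgeR adjusted p = 0.00182).

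At 100 µM the 9 rows of the run had log2 changes of -0.23 to -0.40 against control, with a median of -0.34, and 0 of them were called. In 8 of the 9 both 100 µM libraries lay below both control libraries, which was so for 25% of all tested genes, and 8 had an unadjusted p under 0.05. Of the 9, 8 were called when edgeR was fitted on the 4 libraries of these groups alone, and likewise without either 1000 µM library. Both doses are set against the same control libraries, so their changes are not independent of each other.

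**Figure D3:**
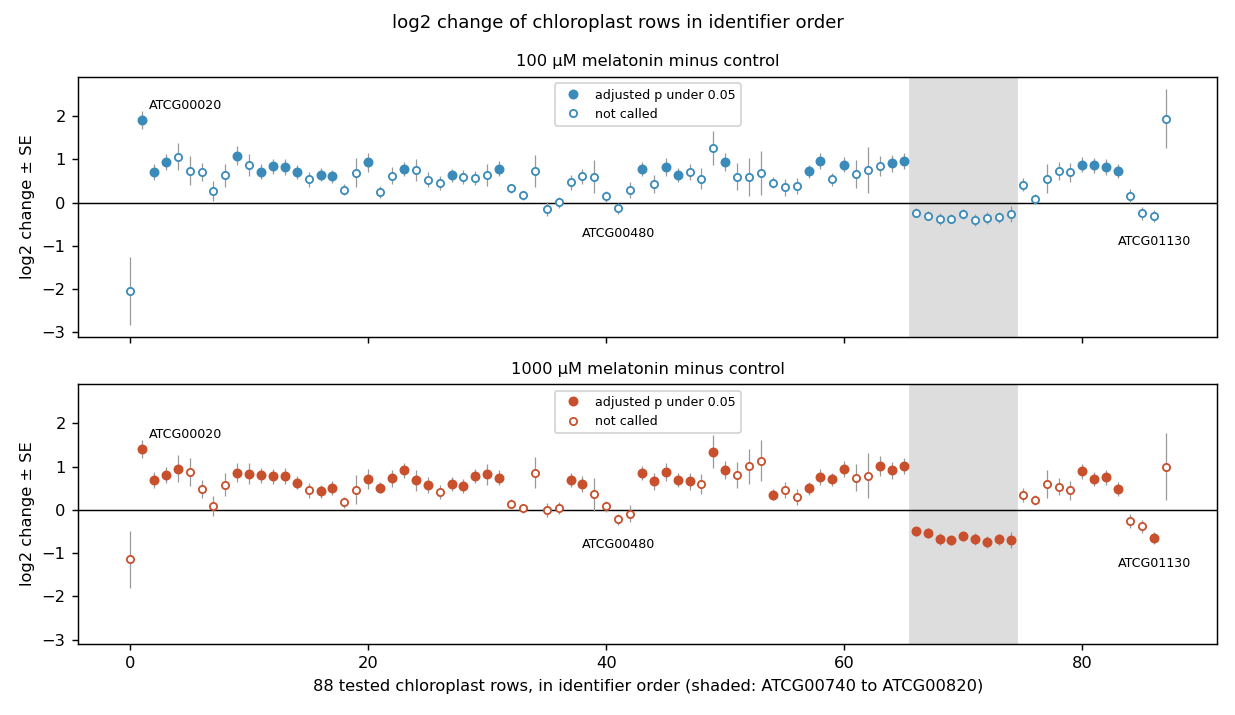
Log2 change against control with its standard error for the 88 tested chloroplast rows in identifier order, at 100 µM (top) and 1000 µM melatonin (bottom); filled points had an adjusted p under 0.05 and the shaded band marks ATCG00740 to ATCG00820. At 1000 µM the 9 rows of the band lie between -0.49 and -0.74, and the tested row directly before the band lies above 0. The next tested row after the band, ATCG01010, also lies above 0, but the 19 rows ATCG00830 to ATCG01000 between them had no test. Outside the band 6 of 79 tested rows lie below 0.

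The position of the changes along the identifiers was as follows. At 1000 µM the 40 tested rows from ATCG00020 to ATCG00470 all had log2 changes above 0, and 25 of them rose. ATCG00480 and ATCG00490 were slightly below 0 with no call. The 23 tested rows from ATCG00500 to ATCG00730 were all above 0 and 15 rose. Directly after them came the run of 9 falls. The 19 rows that follow the run, ATCG00830 to ATCG01000, had no test, so where the falls end is not known. Of the 9 tested rows from ATCG01010 to ATCG01100, all above 0, 4 rose, and the 3 rows from ATCG01110 to ATCG01130 were below 0 with 1 call. The first and the last tested row, with 39 and 41 counts over all libraries, were not called.

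Rows with many counts did not share one course. ATCG00480 had the most counts, 115194 over all libraries, and was called at neither dose. It stood at 2725 and 3159 CPM in control libraries, 2742 and 2637 CPM at 100 µM, and 2871 and 2182 CPM at 1000 µM, and the control group overlapped both others. Its log2 change was -0.13 ± 0.12 at 100 µM (edgeR adjusted p = 0.685) and -0.22 ± 0.12 at 1000 µM (edgeR adjusted p = 0.195). Without 1000 µM replicate 1 the change at 1000 µM was -0.43 and was called. Of the 10 tested rows that start with ATCG004, ATCG00480 among them, 0 rose at 100 µM and 2 at 1000 µM. The rows that start with ATCG001 are given because, by the first digits of the identifier, they held the most rises at either dose. Of the 10 tested there, 7 rose at 100 µM and 8 at 1000 µM.

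**Figure D4:**
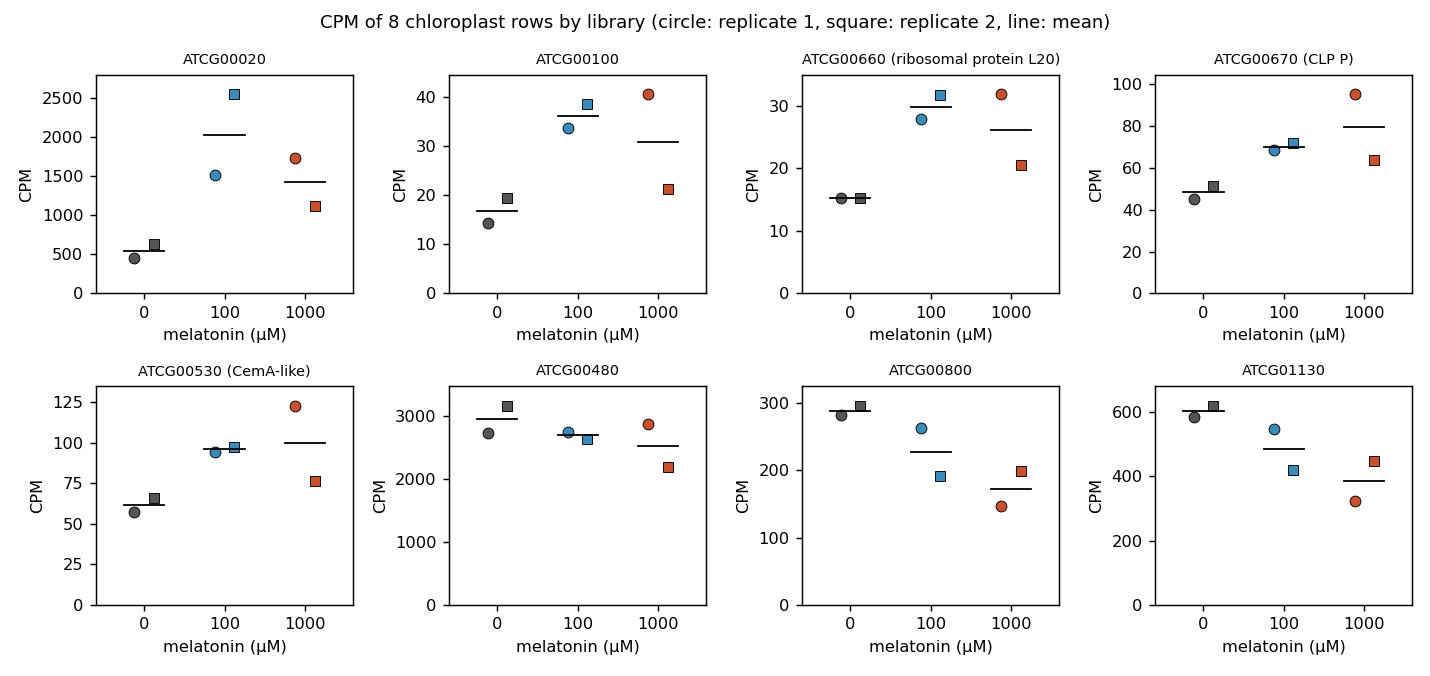
CPM of 8 chloroplast rows in each library against melatonin dose in µM; circles are replicate 1, squares replicate 2 and lines the mean of 2 libraries. ATCG00020, ATCG00100 and the rows for ribosomal protein L20, CLP P and the CemA-like protein lie above control at both doses, ATCG00480 overlaps control, and ATCG00800 and ATCG01130 lie below control at both doses.

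The run held a smaller share of chloroplast counts at both doses. Since the shares add to one total, this alone does not show that the other rows rose. The 9 rows of the run made up 14.5% and 13.1% of chloroplast counts in control libraries, 10.2% and 7.24% at 100 µM, and 5.89% and 9.95% at 1000 µM. Each melatonin library was below both control libraries. The run was noticed by its falls at 1000 µM, and both doses share the same control libraries. Its smaller share therefore follows in part from that choice and is given without a test. The sum of all other chloroplast rows was 8495 and 10030.0 CPM in control libraries, 11596 and 13185 CPM at 100 µM, and 13597 and 9357 CPM at 1000 µM. This sum lay above control in both 100 µM libraries and overlapped control at 1000 µM. Within each melatonin group, the rows of the run and the other rows differed in opposite directions between the replicates. At 1000 µM replicate 1 was higher in 76 of the 79 rows outside the run, whereas replicate 2 was higher in 7 of the 9 inside it. At 100 µM replicate 1 was higher in all 9 rows of the run and in 15 of the 79 others.

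Between the doses, 1000 µM against 100 µM, 0 of the 88 tested chloroplast rows rose and 1 fell. Among all tested genes 8.65% were called higher and 7.3% lower. The median log2 difference was -0.05. At an unadjusted p under 0.05, 0 rows were higher and 11 lower, 8 of these in the run, against 14.7% higher and 13.7% lower of all tested genes. The 11 rows are thus a share no larger than that of all genes. DESeq2 called 0 rows in either direction. The row that fell lay in the run, and 0 rows were called when either control library was left out. This comparison turned on the 1000 µM libraries: 38 rows were lower without replicate 1, and 28 were higher and 8 lower without replicate 2.

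For the 9 rows of the run the log2 difference between the doses was -0.23 to -0.44, with a median of -0.33. Both 1000 µM libraries lay below both 100 µM libraries in 5 of the 9, against 27.7% of all tested genes. ATCG00020 had 1730 and 1117 CPM at 1000 µM against 1518 and 2544 CPM at 100 µM, and the groups overlapped (log2 change -0.51 ± 0.21, edgeR adjusted p = 0.107). It was called lower without 1000 µM replicate 1 (-0.86, adjusted p = 0.000201), without 100 µM replicate 1 (-0.83, adjusted p = 0.0431) and with no filter on low counts (adjusted p = 1.17e-06).

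Nuclear genes that serve chloroplast transcription and RNA processing were followed in 4 lists of 37 genes in all, each of which was tested. At 100 µM 2 rose and 0 fell, and at 1000 µM 7 rose and 7 fell, with medians of 0.05 and -0.07 on the log2 scale. Among all tested genes 1.79% were called higher and 1.53% lower at 100 µM, and 15.2% higher and 14.5% lower at 1000 µM, so the list as a whole stood near the background at 1000 µM, and its genes are given one by one as a description. At 100 µM DESeq2 called 0. At 1000 µM it did not call SIG3, SIG4, FSD3, TRXZ, RNE, MRL1 or HCF145, with adjusted p from 0.0596 to 0.163. The calls at 1000 µM were 22 in number without 1000 µM replicate 2, 8 without control replicate 1 and 6 without control replicate 2.

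Sigma factors, which guide the bacterial-type polymerase to its promoters, were called in both directions at 1000 µM: of 6, SIG5 rose, SIG3 and SIG4 fell, and SIG1, SIG2 and SIG6 were not called. The median of the 6 was -0.26 on the log2 scale. SIG5, a sigma factor known to respond to light and stress, had 13.8 and 13.5 CPM at 1000 µM, against 6.84 and 6.56 CPM in control libraries. Its log2 change was 1.03 ± 0.19 (edgeR adjusted p = 0.000528), and the call held without each library in turn. At 100 µM it had 9.99 and 9.79 CPM with no overlap but no call (edgeR adjusted p = 0.17). SIG3 had a log2 change of -0.45 and SIG4 of -0.40 at 1000 µM. The SIG3 call was lost without control replicate 2 (adjusted p = 0.102), and the SIG4 call without 5 of the 6 libraries, the exception being 1000 µM replicate 2.

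Of the 3 phage-type polymerases, RPOTp of the plastid and RPOTm of the mitochondrion rose at 1000 µM. RPOTp had 68.1 and 77.2 CPM at 1000 µM, against 53.1 and 47.3 CPM in control libraries (log2 change 0.54 ± 0.11, edgeR adjusted p = 0.00127). RPOTm had 41.7 and 48.2 CPM, against 30.3 and 34.8 CPM in control libraries (log2 change 0.46 ± 0.12, edgeR adjusted p = 0.00745), and lost its call without control replicate 1 (adjusted p = 0.119). RPOTmp, which serves both organelles, had a log2 change of 0.45 ± 0.18 that did not pass the test (edgeR adjusted p = 0.0666).

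Among 12 proteins associated with the bacterial-type polymerase, 3 rose at 1000 µM and 0 fell, against 15.2% higher and 14.5% lower of all tested genes, and the median log2 change of the 12 was -0.04. FLN1, a fructokinase-like protein, had 38.7 and 34.8 CPM in control libraries, 50.1 and 54.4 CPM at 100 µM, and 53.0 and 61.1 CPM at 1000 µM. Its log2 change was 0.51 ± 0.12 at 100 µM (edgeR adjusted p = 0.0229) and 0.64 ± 0.12 at 1000 µM (edgeR adjusted p = 0.000456), where the call held without each library in turn. FSD3, an iron superoxide dismutase of the chloroplast nucleoid, rose at both doses, by 0.56 at 100 µM and 0.50 at 1000 µM on the log2 scale. TRXZ, a thioredoxin, rose by 0.40 at 1000 µM. At 100 µM the FLN1 and FSD3 calls were lost without any one of the 4 libraries compared, with adjusted p from 0.107 to 0.329. At 1000 µM the FSD3 and TRXZ calls were each lost without either control library or 1000 µM replicate 1, with adjusted p from 0.0635 to 0.121.

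Among 16 genes of RNA processing and stability, 5 fell at 1000 µM and 1 rose, against 14.5% lower and 15.2% higher of all tested genes, and the median log2 change of the 16 was -0.10. The largest falls were those of CSP41A and CSP41B, a pair of RNA-binding proteins of the chloroplast. CSP41B had 523 and 542 CPM at 1000 µM, against 967 and 971 CPM in control libraries (log2 change -0.86 ± 0.09, edgeR adjusted p = 1.47e-06). CSP41A had 252 and 249 CPM at 1000 µM, against 439.9 and 462 CPM in control libraries (log2 change -0.85 ± 0.10, edgeR adjusted p = 2.83e-06). At 100 µM their log2 changes were -0.16 and -0.21, and neither was called. Both were called lower with the 4 compared libraries alone (adjusted p = 0.0444 and 0.0296) and without either 1000 µM library. The other calls were smaller. The endoribonuclease gene RNE, HCF145, needed for stable psaA mRNA, and MRL1, needed for stable rbcL mRNA, changed by -0.39, -0.51 and -0.28, and HCF152, needed to process the psbB transcript, by 0.43. Each of these 4 lost its call without control replicate 2, with adjusted p of 0.310, 0.0854, 0.266 and 0.0512. HCF145 lost it also without 1000 µM replicate 1 (0.104), HCF152 without control replicate 1 (0.0646), and MRL1 without control replicate 1 (0.0913) or either 100 µM library (0.0736 and 0.0686).

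**Figure D5:**
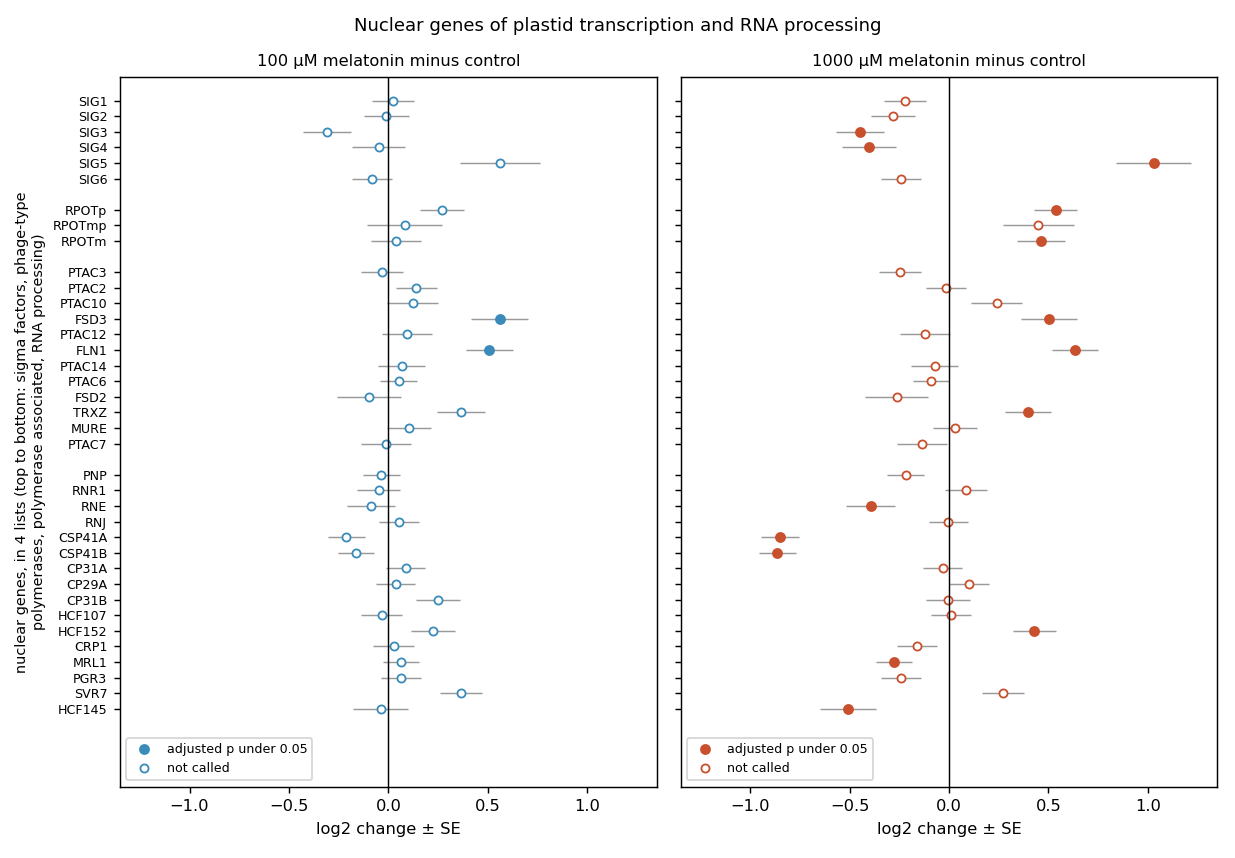
Log2 change against control with its standard error for 37 nuclear genes of plastid transcription and RNA processing, in 4 lists from top to bottom, at 100 µM (left) and 1000 µM melatonin (right); filled points had an adjusted p under 0.05. At 1000 µM SIG5 stands highest at 1.03, and CSP41A and CSP41B stand lowest at -0.85 and -0.86.

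Nuclear leaf markers moved the other way from the 44 rising chloroplast rows at 1000 µM: of 6, 4 fell and 0 rose, against 14.5% of all tested genes called lower. Their summed level was 21220 and 22940 CPM in control libraries, 20606 and 20107 CPM at 100 µM, and 14804 and 13271 CPM at 1000 µM. RCA, the gene for Rubisco activase, fell by 1.09 on the log2 scale (edgeR adjusted p = 4.18e-07). Of the 10 root markers, 7 fell and 0 rose at 1000 µM, among them PYK10 with a log2 change of -0.68. At 100 µM 0 markers of either list were called by edgeR over all 6 libraries. With the 4 compared libraries alone LHCA1, a photosystem I antenna gene, and RCA were called lower at 100 µM (adjusted p = 0.000565 and 0.00458), and likewise without either 1000 µM library. The part of these shifts in the chloroplast results was not tested.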

How the data were processed

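RNA-seq libraries of 3 groups of 2 were used, grouped by the treatment in the labels. The values are raw read counts per gene as deposited by the authors; the submitters' processing notes name Bowtie2 2.2.3, TopHat2 2.0.12, HTSeq 0.6.1, DESeq 1.18.0 and the build TAIR10. The sources used here do not state RNA selection, strand setting or the handling of reads with several positions, so reads of overlapping or antisense loci cannot be told apart. Counts were tested with edgeR 4.0.16 (TMM, filterByExpr, glmQLFit, glmQLFTest, two-sided) over all 6 libraries with the dose group as the factor, leaving 18380 of 32678 genes; adjusted p-values cover all of them. The model had 3 residual and 14.1 prior degrees of freedom. Most of the spread used for a gene thus came from the trend over all tested genes, and less from its own libraries. For rows that vary more than this trend, calls can look firmer than their own spread allows. CPM use TMM-scaled library sizes. DESeq2 1.42.0 and other settings served as alternatives. The scripts were tested on simulated data. Intervals and tests cover these libraries only.

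The members and gene lists were chosen with earlier results of these data known. RefSeq names (assembly TAIR10.1) were read from gene notes: 0 of 133 ATCG identifiers match its entries. The planned naming rule, by gene symbol and function, therefore could not be applied to chloroplast rows; the text names rows with a RefSeq note, the 2 largest called rises and falls per comparison, the row with the most counts and the fall outside the run, apart from some rows not reported here. Nuclear genes are those called in the 4 lists, some chosen after their values were seen. No sequences are shown. Same-numbered libraries did not deviate together and were not paired.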

Additional observations from a re-analysis of the deposited data

How the results depend on the processing

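The medians of the tested chloroplast rows against control stayed above 0 in every alternative, between 0.51 and 0.76 at 100 µM and between 0.22 and 0.94 at 1000 µM, whereas counts of calls moved. The 27 rises at 100 µM were 11 by DESeq2, 49 with no filter on low counts, 51 with the 4 compared libraries alone, and 1 to 53 when single libraries were left out. The 0 falls at 100 µM were 6 with no filter, 9 with the compared libraries alone, and 0 to 9 when single libraries were left out. The 44 rises at 1000 µM were 20 by DESeq2 and 20 to 67 without single libraries, while the 10 falls were 9 to 14 under all alternatives. Between doses, the 0 rises were 1 with no filter and 0 to 28 without single libraries, and the 1 fall was 0 by DESeq2, 0 with the compared libraries alone, 10 with no filter, and 0 to 38 without single libraries. Nuclear genes of plastid gene expression, 2 called at 100 µM, were 0 by DESeq2, 6 with the compared libraries alone and 0 to 6 without single libraries. The 14 called at 1000 µM were 7 by DESeq2 and 6 to 22 without single libraries. For the CemA-like row (ATCG00530), the difference between doses was 0.05; it was -0.32 (adjusted p = 0.0279) without 1000 µM replicate 1 and 0.37 without replicate 2. The cause of these shifts was not tested.

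Same-numbered libraries did not deviate together over all tested genes (correlations of -0.0662 to 0.0277). With 2 libraries a group, both replicate numbers give the same value, so this cannot show that the numbers pair nothing. With a replicate block, 20 rows rose at 100 µM, 41 rose and 10 fell at 1000 µM, 0 fell between doses, and 1 and 13 nuclear genes were called at 100 and 1000 µM. RLE scaling and scaling from nuclear genes changed no count by more than 1.5 times. The chloroplast share without rRNA and tRNA rows was not run, since identifiers could not be told apart by type. Without the row with the most counts, or set against nuclear counts, the share differences moved by less than the spread between replicates. Depth limits rows such as ATCG00560, which had 131 counts in all libraries together.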
